A study of Mus musculus with 24 samples.

Results

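Complement RNA was examined in the medial prefrontal cortex (mPFC) of morphine-exposed (MO) and saline (SAL) mouse offspring through 9 genes, chosen by symbol: C1qa, C1qb, C1qc, C3, C4b, Itgam, Itgb2, C3ar1 and C5ar1. All 9 were found among the 24972 genes of each table, and all 9 passed the filter on low values in both sexes. The tissue came from B6D2F1/J mice of both sexes on postnatal day (P) 21, bred from DBA/2J sires and C57BL/6J dams. MO dams received subcutaneous morphine sulfate once a day, at 10 mg/kg after a stepwise start, from the week before breeding until the litter was weaned, and SAL dams received saline on the same schedule. Pups were thus exposed through the dam, before birth and by nursing, and the dams of every group were injected. RNA was sequenced from 6 male MO, 6 male SAL, 6 female MO and 6 female SAL libraries (PFC1 to PFC24), 1 offspring per litter and sex, and small litters had been merged after birth. The sequencing was done to find candidate genes, with MO set against SAL within each sex.

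Complement is a set of secreted proteins that tags targets for removal. In the classical pathway C1q, built from the A, B and C chains, binds a target and leads to cleavage of C4 and then of C3. Fragments of C3 on the target are bound by complement receptor 3, the pair of CD11b (Itgam) and CD18 (Itgb2), while the small fragments C3a and C5a act on the receptors C3aR (C3ar1) and C5aR1 (C5ar1). In the brain microglia make most C1q and are the main resident cells with complement receptor 3. C1q, C3 and this receptor are known from the developing mouse visual system for their part in the removal of synapses by microglia.

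The 3 C1q genes lie side by side on the minus strand of chromosome 4 in GRCm38: C1qb at 136880129 to 136886187, C1qc at 136889804 to 136893065 and C1qa at 136895917 to 136898803. C3 (57203970 to 57228136) and C4b (34728380 to 34743882) are both on chromosome 17. Itgam lies on the plus strand of chromosome 7 at 128062640 to 128118491, Itgb2 on the plus strand of chromosome 10 at 77530252 to 77565708, C3ar1 on chromosome 6 at 122847138 to 122856161 and C5ar1 on chromosome 7 at 16246743 to 16259540. RefSeq promoters (GRCm38.p6, 250 bases before to 50 after the start) were matched for 6 of the 9 genes, C1qb, C1qc, C3, Itgam, C3ar1 and C5ar1. They were searched for GAGGAA or its reverse complement TTCCTC, the core bound by PU.1, a transcription factor of the macrophage lineage that includes microglia. The motif stood once in C1qb, once in C1qc and 3 times in Itgam, and these letters were not in the windows of C3, C3ar1 and C5ar1. Of all 32851 promoters in the table, 28.3% held at least 1 match and 0.685% held 3 or more. The 3 promoters with a match are shown, each 5′ to 3′ on the strand of its gene with the motif in capitals. They are C1qb at chr4:136886151-136886450 and C1qc at chr4:136892865-136893164 on the minus strand and Itgam at chr7:128062390-128062689 on the plus strand.
C1qb: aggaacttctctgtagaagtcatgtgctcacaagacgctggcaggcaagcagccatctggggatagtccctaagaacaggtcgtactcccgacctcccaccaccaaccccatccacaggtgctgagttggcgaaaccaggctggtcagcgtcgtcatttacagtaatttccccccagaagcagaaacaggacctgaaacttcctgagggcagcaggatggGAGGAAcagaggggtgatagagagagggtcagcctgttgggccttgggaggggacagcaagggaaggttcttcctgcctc
C1qc: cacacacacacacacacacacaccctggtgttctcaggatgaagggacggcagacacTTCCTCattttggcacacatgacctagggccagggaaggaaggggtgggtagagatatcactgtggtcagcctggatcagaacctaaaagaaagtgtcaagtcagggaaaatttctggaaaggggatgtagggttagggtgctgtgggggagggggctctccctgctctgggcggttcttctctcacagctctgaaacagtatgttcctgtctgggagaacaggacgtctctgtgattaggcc
Itgam: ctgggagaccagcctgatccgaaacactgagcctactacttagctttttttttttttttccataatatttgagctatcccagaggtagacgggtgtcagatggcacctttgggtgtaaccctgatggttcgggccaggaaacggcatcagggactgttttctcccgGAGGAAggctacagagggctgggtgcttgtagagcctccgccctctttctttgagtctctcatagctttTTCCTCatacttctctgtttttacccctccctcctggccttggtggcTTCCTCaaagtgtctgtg
A match is a description of the letters and not evidence of binding.

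The values are normalized counts made by the authors, each sex separately, so levels were compared only within a sex. Their sums per library were 14728966 to 15966593. The commonest low value of a library was 0.782 to 1.18, roughly what 1 read was worth, and it served only as a rough guide to counting error, because the values are not exact multiples of it. The column names of 4 female MO, 4 female SAL, 2 male MO and 1 male SAL libraries end in the word combined, and its meaning is not given in the sources used here. The female MO library PFC1 stood apart. On the log2(normalized count + 1) scale, its mean over 6 oligodendrocyte markers lay 2.17 above the median of the 11 other female libraries, its mean over 9 astrocyte markers 0.94 above, over 21 homeostatic microglia markers 0.83 above and over the 10 detected neutrophil markers 3.58 above. Detected means a sum of 10 or more over the libraries of a sex, PFC1 included, so some neutrophil genes may have passed through PFC1. The mean of PFC1 over 8 neuron markers was the lowest of the 12 libraries, 0.42 below the median of the other 11. The fold changes of the 9 genes in females are therefore given with and without PFC1, as are those of other genes where it matters. The defining microglia markers P2ry12, Tmem119 and Cx3cr1 were present in every library, the lowest values being 526, 227 and 522 normalized counts. Ly6g, which defines neutrophils, was listed at 0 in all libraries but 1 female MO library.

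Per kilobase of transcript, the order of the levels ran from the C1q chains down to C3 and was the same in male and female SAL mice. In male SAL mice C1qa stood at 465 normalized counts per kilobase, C1qb at 451 and C1qc at 318. Itgam followed at 58.0, C4b at 16.01, Itgb2 at 14.0 and C3ar1 at 3.42, and C5ar1 (1.07) and C3 (0.906) were lowest. In female SAL mice the same genes stood at 532, 481, 378, 62.2, 15.4, 12.9, 3.10, 1.52 and 0.874. The ranges of C1qc and Itgam, of Itgam and C4b, and of Itgb2 and C3ar1 did not overlap in either sex. The ranges of the other neighbours overlapped. C1qa was above C1qb in 3 of 6 male SAL libraries and C4b above Itgb2 in 3 of 6 female SAL libraries, and C5ar1 was above C3 in 3 of 6 male and 4 of 6 female SAL libraries, so these neighbours have no settled order. The RNA of the initiating protein was thus abundant in this tissue, while that of C3, the central protein of the cascade, amounted to a few normalized counts per library.

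**Figure D1:**
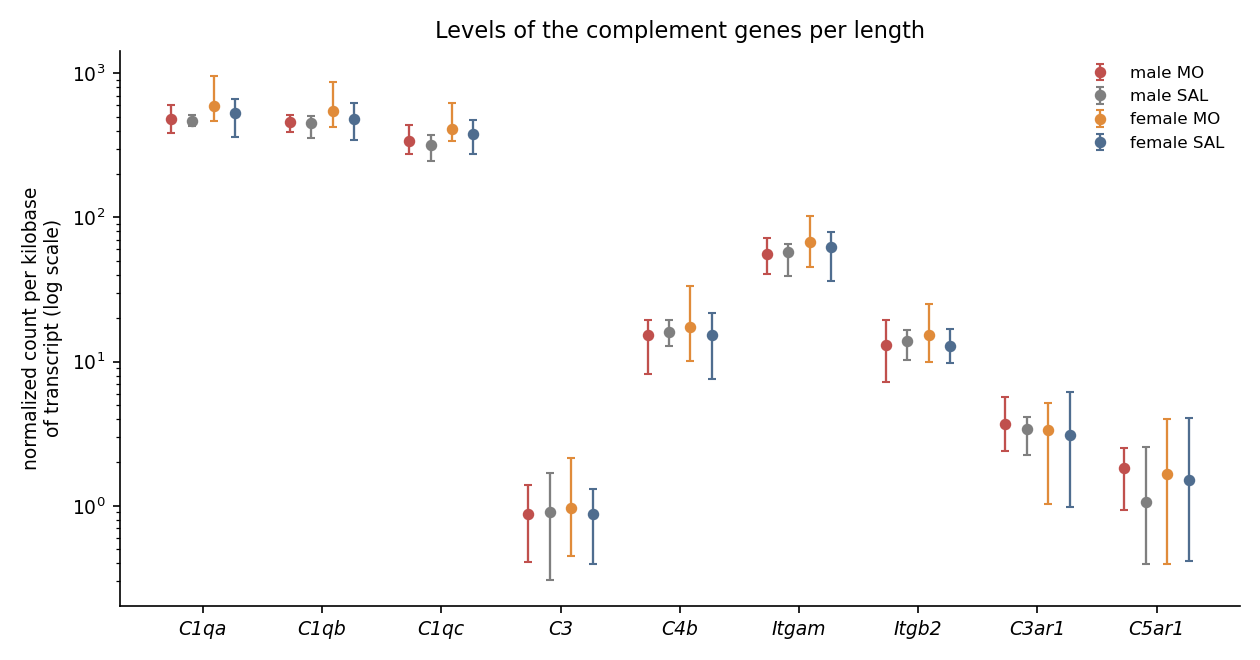
Level of each complement gene (x axis) in normalized counts per kilobase of transcript (y axis, log scale). Points are means of 6 libraries and bars run from the lowest to the highest library, in the order male MO, male SAL, female MO, female SAL. The C1q chains stand at 318 to 532 in SAL mice and C3 at 0.874 to 0.906.

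None of the C1q chains differed between MO and SAL beyond the spread of the libraries in either sex (limma, adjusted p of 0.918 or more). In males, C1qa, the A chain, had 401, 491 and 628 normalized counts (lowest, median and highest of 6 libraries) in MO, against 449, 477 and 531 in SAL. The SAL range lay inside the MO range. C1qb, the B chain, had 425, 492 and 561 normalized counts in male MO and 388, 508 and 548 in male SAL. C1qc, the C chain, had 329.6, 379 and 528 in male MO and 296, 388 and 449 in male SAL. For all 3 chains the male groups overlapped. The log2 fold changes in males were 0.04 for C1qa (standard error 0.096, 95% interval -0.16 to 0.25), 0.02 for C1qb (-0.17 to 0.20) and 0.07 for C1qc (-0.17 to 0.31).

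In females the C1q values were spread more widely, with PFC1 at the top and PFC22 at the bottom. C1qa had 488, 571 and 995 normalized counts in female MO, the highest in PFC1 and the next at 597, against 373, 577 and 693 in female SAL. The medians of the groups were alike, and the low end of SAL came from PFC22 (373) and PFC24 (465), the only 2 female SAL libraries not marked combined. C1qb had 459, 525 and 950.1 in female MO and 373, 529 and 678 in female SAL. C1qc had 409, 452 and 742 in female MO and 331, 455 and 566 in female SAL. PFC1 was highest for each chain, and the other 5 MO libraries lay within the SAL range for each. The log2 fold changes in females were 0.14 for C1qa (standard error 0.17, 95% interval -0.23 to 0.51), 0.16 for C1qb (-0.21 to 0.54) and 0.11 for C1qc (-0.23 to 0.44). Without PFC1 they were -0.0030 (-0.28 to 0.27), 0.017 (-0.27 to 0.31) and -0.016 (-0.28 to 0.25).

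Libraries marked combined differed from the others in C1q in some groups, in no common direction. Among the 4 female MO and 4 female SAL libraries so marked, the difference of C1qa on the log2 scale was -0.042 (exact permutation test, p = 0.943), and among the 2 female MO and 2 female SAL libraries not marked it was 0.51, where the smallest p that 2 against 2 allows is 0.333. In males, the 4 MO libraries not marked were above the 5 such SAL libraries by 0.20 for C1qa (exact permutation test, p = 0.0794), 0.12 for C1qb (p = 0.365, exact) and 0.20 for C1qc (p = 0.254, exact). The 2 male MO libraries that were marked had the lowest C1qa values of the sex's 12, 401 and 417, while PFC9, the only marked male SAL library, was at 501 for C1qa and had the highest C1qc value of its group, 449. What this marking stands for was not tested.

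C3 RNA was scarce in mPFC. It had 2.09, 4.48 and 7.11 normalized counts in male MO and 1.56, 3.72 and 8.65 in male SAL. In females it had 2.31, 3.99 and 11.02 in MO, the highest again in PFC1, and 2.04, 4.87 and 6.77 in SAL. At these levels the spread between libraries was 0.758 to 1.48 times that of counting alone, if 1 read is worth the commonest low value. The log2 fold changes were 0.03 in males (standard error 0.34, 95% interval -0.68 to 0.75) and 0.08 in females (standard error 0.38, -0.73 to 0.88). Both intervals, from 6 libraries per group, reach beyond 0.68 on either side, so they hold changes of that size in either direction. The log2(normalized count + 1) scale understates changes at such low values. Without PFC1 the female log2 fold change of C3 was -0.16 (-0.92 to 0.61), which turned its sign. C4b, which encodes the mouse C4 of the classical pathway, had 43.9, 87.0 and 105 normalized counts in male MO and 68.7, 87.2 and 104 in male SAL. In female MO it had 54.0, 80.6 and 181, and in female SAL 40.9, 85.9 and 117. Both male medians were near 87, and PFC19 was the lowest MO library. The log2 fold change was -0.11 in males (-0.48 to 0.26) and 0.14 in females (-0.45 to 0.72), and -0.076 in females without PFC1. Of the 85-base stretches of the C4b transcript, 20.2% also occur in C4a, its near copy, so reads could be divided between them. C4a averaged 1.202 normalized counts over the 12 male and 2.25 over the 12 female libraries.

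Itgam and Itgb2, the 2 chains of complement receptor 3, did not pass the test in either sex (limma, unadjusted p of 0.399 or more). Itgam had 189.9, 254 and 338 normalized counts in male MO and 182, 284 and 306 in male SAL. In female MO it had 212, 299 and 478, and in female SAL 169, 304 and 371. PFC1 was highest and PFC22 lowest of the female libraries. The log2 fold change of Itgam was -0.077 in males (standard error 0.15, 95% interval -0.39 to 0.23) and 0.12 in females (standard error 0.20, -0.29 to 0.54), and -0.0028 in females without PFC1 (-0.37 to 0.37). Over both sexes it was 0.024 (limma, 95% interval -0.25 to 0.29, unadjusted p = 0.859). By qPCR on the same mPFC RNA samples, the study had reported higher Itgam in MO than in SAL offspring over both sexes. The qPCR values were normalized to Gapdh and Ppia, and the sequencing interval over both sexes holds 0 as well as rises up to 0.29. Whether the 2 methods differ beyond their errors was not tested. In GENCODE, 71.9% of the 85-base stretches of Itgam are shared with Gm49368, a model that overlaps it and is no row of the deposited tables. Itgb2 had 21.6, 36.6 and 58.0 normalized counts in male MO and 30.3, 42.2 and 49.6 in male SAL. In females it had 29.7, 41.5 and 74.3 in MO and 28.9, 37.7 and 49.9 in SAL. Its log2 fold change was -0.13 in males (-0.56 to 0.29) and 0.19 in females (-0.28 to 0.66), and 0.037 in females without PFC1.

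C3ar1, the receptor of C3a, had 10.4, 13.8 and 24.5 normalized counts in male MO and 9.69, 15.6 and 17.8 in male SAL. In females it had 4.41, 13.7 and 22.1 in MO and 4.21, 12.4 and 26.5 in SAL, where PFC21 of MO and PFC24 of SAL were lowest. Its log2 fold change was 0.04 in males (-0.46 to 0.53) and 0.14 in females (-0.68 to 0.97), and 0.040 in females without PFC1. C5ar1, the receptor of C5a, was the member with the largest difference and among the lowest in level. In males it had 2.34, 4.60 and 6.28 normalized counts in MO and 0.993, 2.22 and 6.46 in SAL. Of the male MO libraries 5 exceeded every SAL library but PFC16, whose value of 6.46 was the highest of the 12. The log2 fold change in males was 0.699 (standard error 0.35, 95% interval -0.04 to 1.44). It did not pass the test (limma, p = 0.0614 unadjusted, adjusted p = 0.9997, and exact permutation test, p = 0.0584). In female MO C5ar1 had 1.00, 3.25 and 10.0 normalized counts, and in female SAL 1.05, 2.88 and 10.2. The female groups overlapped over nearly their whole range, with a log2 fold change of 0.13 (-0.81 to 1.08), and -0.13 without PFC1. Leaving out PFC16 gave a log2 fold change of 0.93 in males and an unadjusted p of 0.0129 in limma, and leaving out PFC9 gave 0.55 and an exact permutation p of 0.119.

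**Figure D2:**
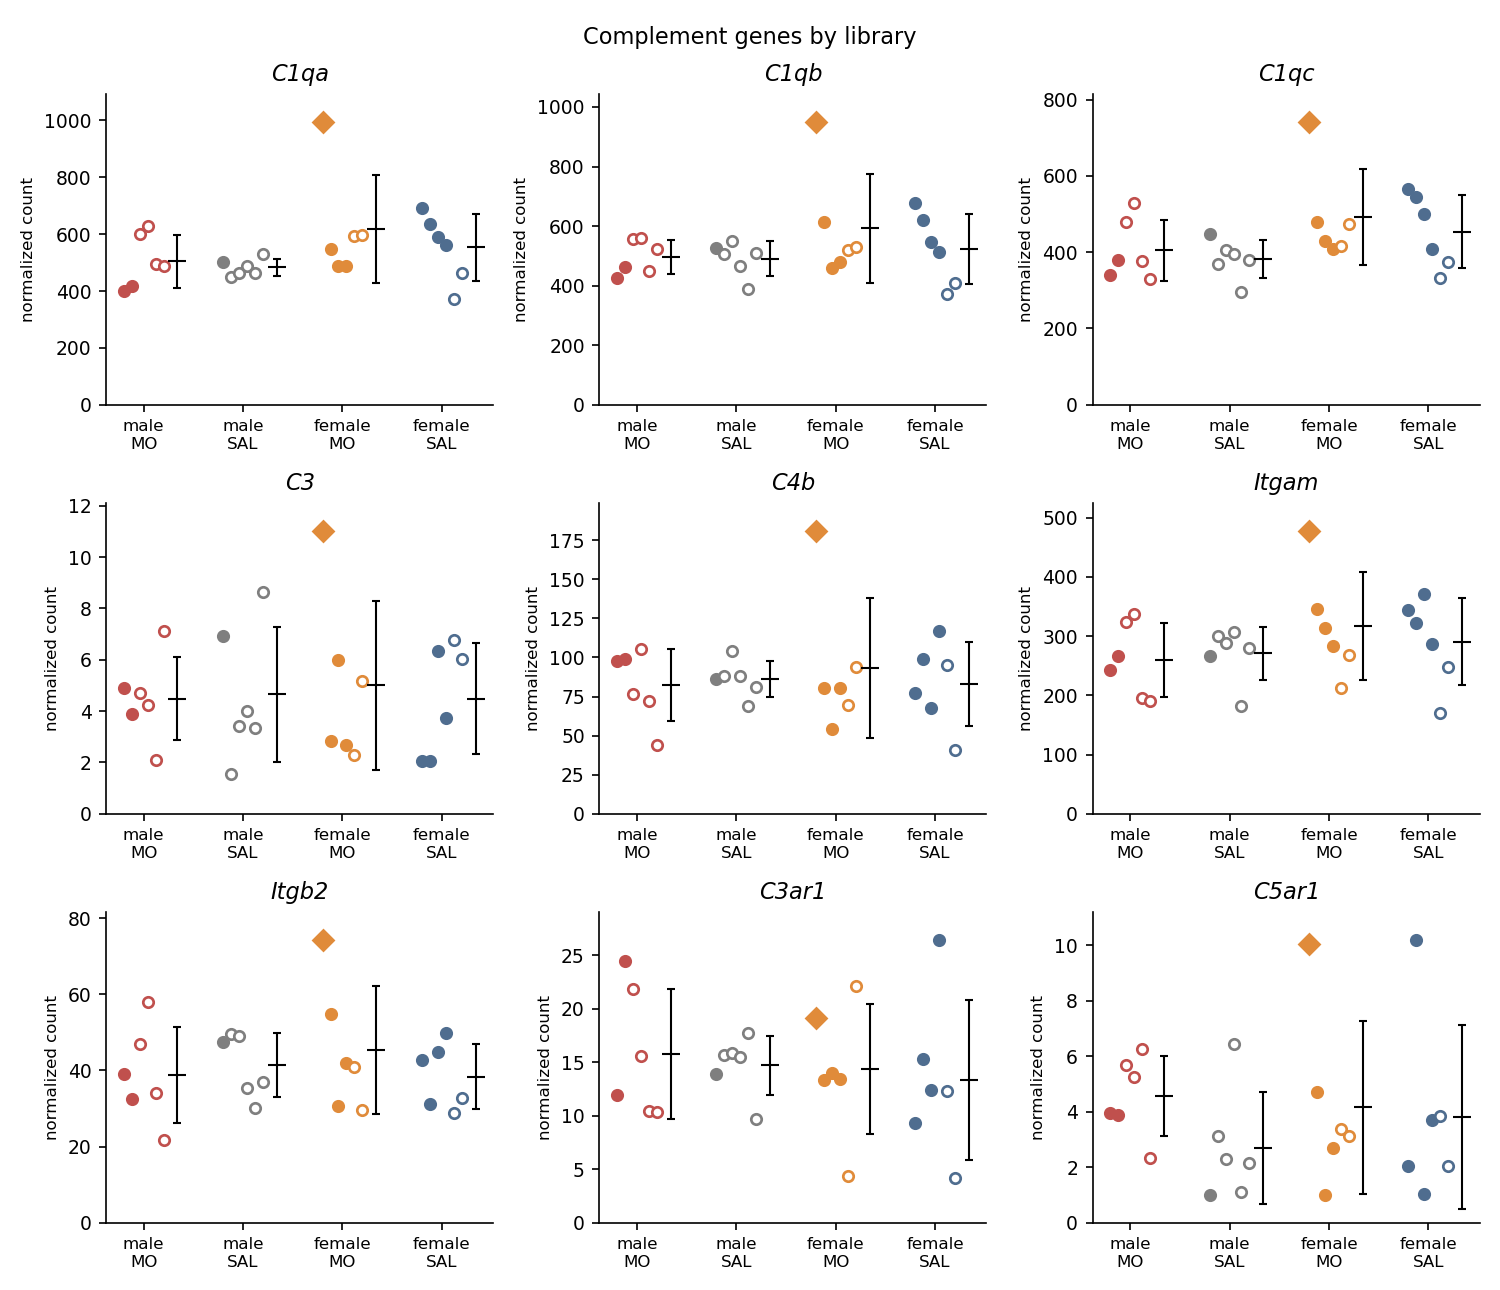
Normalized counts (y axis) of the 9 complement genes in each library of the 4 groups (x axis). Filled points are libraries marked combined, open points the others, the diamond is PFC1, and the black bar beside each group is the mean ± SD of 6 libraries. PFC1 is the highest female library for C1qa (995), C1qb (950.1) and C1qc (742), and the groups overlap for every gene.

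Over the 9 genes, 0 passed an adjusted p of 0.05 (limma, Benjamini-Hochberg) in males, in females, over both sexes or for the difference between sexes, and 0 had an unadjusted p under 0.05. Among all genes tested the adjusted threshold was passed by 0 of 16662 in males, 0 of 16717 in females and 0 of 17303 over both sexes or for the difference between sexes (0.0% in each), and an unadjusted p under 0.05 was found for 2.85% in males, 2.93% in females, 4.72% over both sexes and 2.1% for the difference between sexes. Log2 fold changes were above 0 for 6 of the 9 genes in males (median 0.03) and for 9 of 9 in females (median 0.14), against 49.9% and 50.5% of all genes, whose medians were -0.00023 and 0.0018. These counts carry no test, since several of the genes rose and fell together from library to library. Without PFC1 the count in females was 3 of 9, with a median of -0.0030, and 0 of 9 had an unadjusted p under 0.05, against 2.26% of all genes. Over both sexes, PFC1 included, the log2 fold changes of the C1q chains were 0.09 each (95% intervals -0.12 to 0.31 for C1qa, -0.12 to 0.30 for C1qb and -0.12 to 0.30 for C1qc) and that of C5ar1 was 0.42 (-0.16 to 0.99, limma, unadjusted p = 0.150). With 1 library left out, these ran from 0.022 to 0.13 for C1qa, 0.017 to 0.13 for C1qb and 0.030 to 0.12 for C1qc. For C5ar1 the range was 0.31 to 0.57. The difference between sexes had its smallest unadjusted p at Itgb2, where the female log2 fold change exceeded the male one by 0.33 (limma, 95% interval -0.32 to 0.97, adjusted p = 0.9997, with 0.309 before adjustment). With 1 library left out, this excess ran from 0.17 to 0.45. The exact permutation test on single genes gave p values of 0.0584 or more in males and of 0.463 or more in females.

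**Figure D3:**
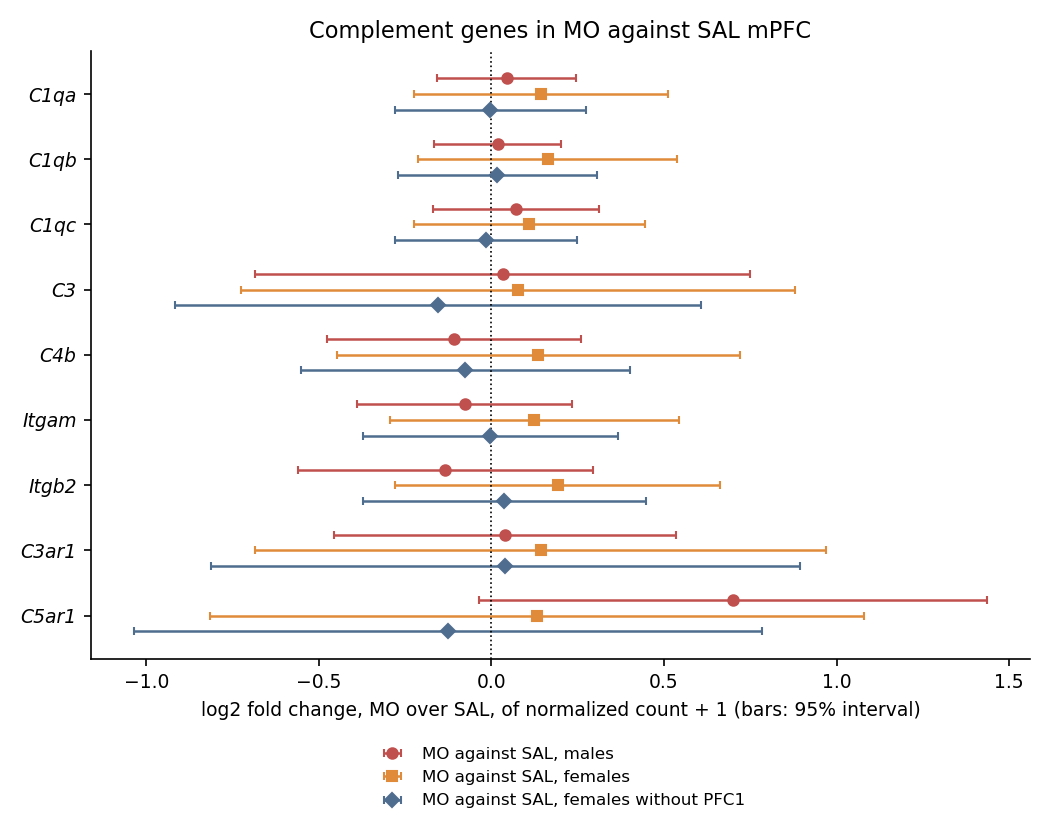
Log2 fold change of MO over SAL (x axis) for the 9 complement genes (y axis) in males, in females and in females without PFC1. Points are limma estimates and bars 95% intervals on the log2(normalized count + 1) scale. All 27 intervals hold 0, and the point of C5ar1 in males (0.699) lies farthest from it.

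Across libraries the C1q chains rose and fell together. With group means removed, the Pearson correlation in females was 0.96 for C1qa with C1qb, 0.94 for C1qa with C1qc and 0.97 for C1qb with C1qc over 12 libraries (Spearman's rho 0.91, 0.90 and 0.97). In males it was 0.63, 0.72 and 0.77 (rho 0.70, 0.71 and 0.83). Without the 2 libraries farthest from the median these became 0.90, 0.87 and 0.93 in females and 0.45, 0.43 and 0.58 in males. Within the 9 male libraries not marked combined they were 0.44, 0.77 and 0.69, and within the 8 female libraries so marked 0.97, 0.96 and 0.96. Permutation p values, adjusted over 18 relations, were at most 0.031 for Pearson and 0.0202 for Spearman among these 6 pairs. Before adjustment the Pearson p values of the 18 ran from 1e-05, the smallest that 100000 permutations can give, to 0.0949. The ratio of C1qa to C1qc per kilobase had a median of 1.41 in male MO, 1.42 in male SAL, 1.42 in female MO and 1.39 in female SAL.

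The chains also followed the microglia markers. Over 21 homeostatic microglia markers (none of them a member), the mean log2 level correlated with the C1q mean at 0.88 in males and 0.95 in females (rho 0.81 and 0.95, adjusted permutation p = 0.00077 and 3.6e-05 for Pearson and 0.0042 and 0.00012 for Spearman, n = 12 each). It fell to 0.77 and 0.88 without the 2 farthest libraries, was 0.91 in females without PFC1, and was 0.97 within the 9 male libraries not marked combined and 0.97 within the 8 female libraries that were marked. Itgam followed the markers as closely, at 0.94 in males and 0.93 in females (rho 0.97 and 0.91, adjusted permutation p = 3.6e-05 and 9.0e-05 for Pearson and 9.0e-05 and 0.00054 for Spearman, n = 12 each), and at 0.90 and 0.86 without the 2 farthest libraries and 0.99 and 0.90 within those 9 and 8 libraries. Itgb2 did so less, at 0.77 and 0.72 (rho 0.68 and 0.55, adjusted permutation p = 0.0057 and 0.0100 for Pearson and 0.0224 and 0.0775 for Spearman), with 0.62 and 0.46 left without the 2 farthest libraries and 0.81 and 0.70 within those 9 and 8 libraries, so the female relation rests on PFC1 and PFC22. C4b correlated with 9 astrocyte markers at 0.86 in males and 0.79 in females (rho 0.74 and 0.70, adjusted permutation p = 0.00082 and 0.0040 for Pearson and 0.0145 and 0.0202 for Spearman), with 0.63 and 0.69 left without the 2 farthest libraries and 0.84 and 0.85 within the same 9 and 8 libraries. Without PFC1 this female correlation was 0.59. With the microglia markers C4b had 0.50 and 0.59 (rho 0.54 and 0.53, adjusted permutation p = 0.0949 and 0.0465 for Pearson and 0.0775 for Spearman in both). These became 0.29 and 0.62 without the 2 farthest libraries and 0.76 and 0.79 within those 9 and 8 libraries, and the female value was 0.25 without PFC1. The C1q mean also went with 6 oligodendrocyte markers, at 0.69 in males and 0.84 in females (rho 0.69 and 0.84, adjusted permutation p = 0.0160 and 0.00082 for Pearson and 0.0205 and 0.0030 for Spearman), at 0.49 and 0.82 without the 2 farthest libraries and 0.84 and 0.85 within those 9 and 8 libraries. The libraries thus differed in several glial lists at a time, and in bulk tissue fewer cells of a type and less RNA per cell cannot be told apart.

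**Figure D4:**
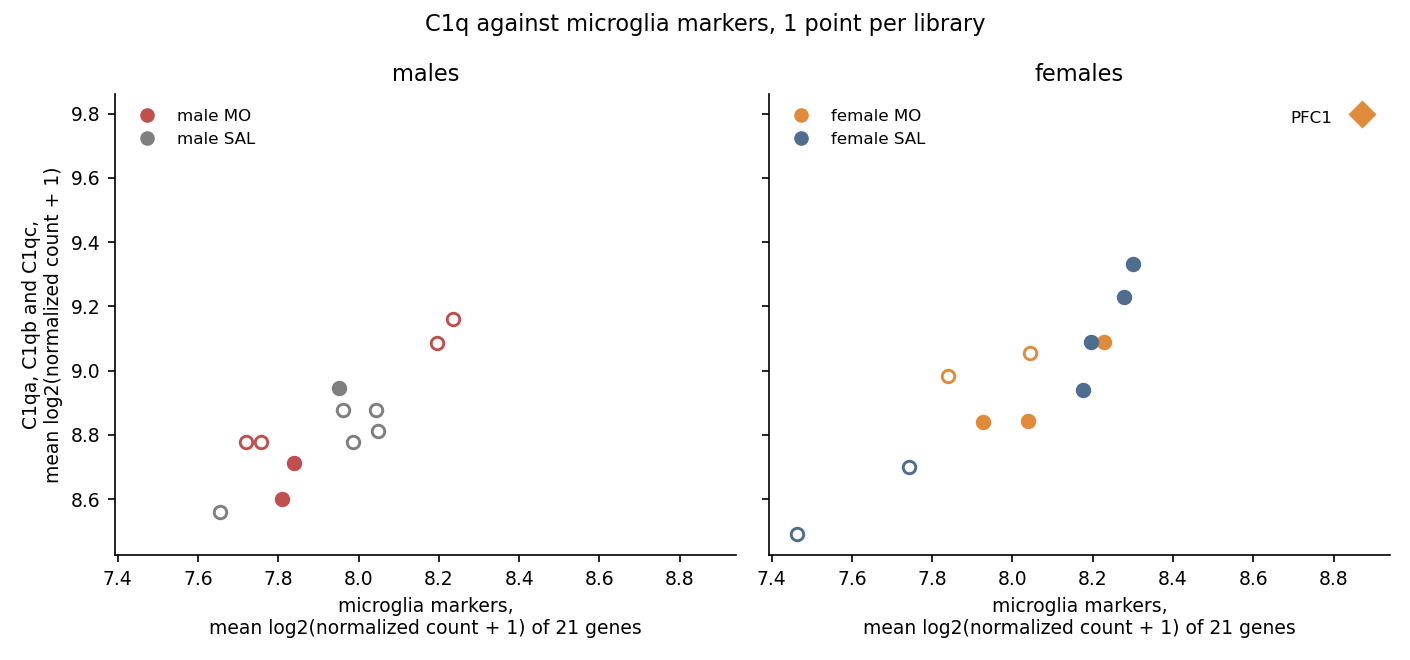
Mean log2 level of C1qa, C1qb and C1qc (y axis) against the mean log2 level of 21 microglia markers (x axis), 1 point per library, males on the left and females on the right. Filled points are libraries marked combined and the diamond is PFC1. In both sexes the C1q mean rose with the markers across libraries (Pearson's r with group means removed, 0.88 in males and 0.95 in females). This r leaves out any offset between MO and SAL.

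Relative to the microglia markers, no difference of a C1q chain between MO and SAL passed the exact test in either sex. The log2 level of C1qa minus the mean of the 21 markers averaged 1.04 in male MO and 0.976 in male SAL, a difference of 0.06 (exact permutation test, p = 0.513, n = 6 each), and 1.07 in female MO and 1.06 in female SAL, a difference of 0.012 (p = 0.894, exact). The differences of C1qb were 0.033 and 0.031, those of C1qc 0.087 and -0.022, and those of Itgam -0.062 and -0.0070, in males and females, with exact permutation p values of 0.188 or more. The within-group SD of C1qa in females was 0.14 after this step and 0.35 before, and in males 0.157 and 0.196, though 0.204 after it with 3 markers in place of 21. That of Itgam was 0.15 and 0.40 in females and 0.15 and 0.32 in males. That of C3 was larger after the step, 0.72 and 0.67 in females and 0.59 and 0.58 in males. PFC1 ranked 5 of 12 female libraries for C1qa after the step and 8 of 12 for Itgam. Of the 18 comparisons over 9 genes and 2 sexes, 1 had an unadjusted exact permutation p under 0.05, C5ar1 in males, with a difference of 0.71 (p = 0.0433). With 1 library left out, this exact p lay between 0.00649, without the SAL library PFC16, and 0.0887. The share of all genes with a p under 0.05 was not computed for this measure, and the values of C5ar1 are near those of single reads.

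The genes most like C1q included many of the microglia markers. Over 24 libraries with group means removed, the highest Pearson correlations with the mean of the 3 chains among 13083 genes included those of Ctss (0.94), Rnase4 (0.93), Cst3 (0.93), Selplg (0.93), Olfml3 (0.91), Tmem119 (0.91), Ctsz (0.91), Laptm5 (0.91) and Vsir (0.90). Ctss encodes the lysosomal protease cathepsin S. Of the 21 microglia markers 12 were among the first 100 genes, and the list had a median correlation of 0.86 against -0.047 over all genes. Without PFC1 the correlations of the 9 genes named here were 0.85 to 0.91, and all 9 were still among the first 16. The points share library, depth and tissue makeup, so these values are a description.

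**Figure D5:**
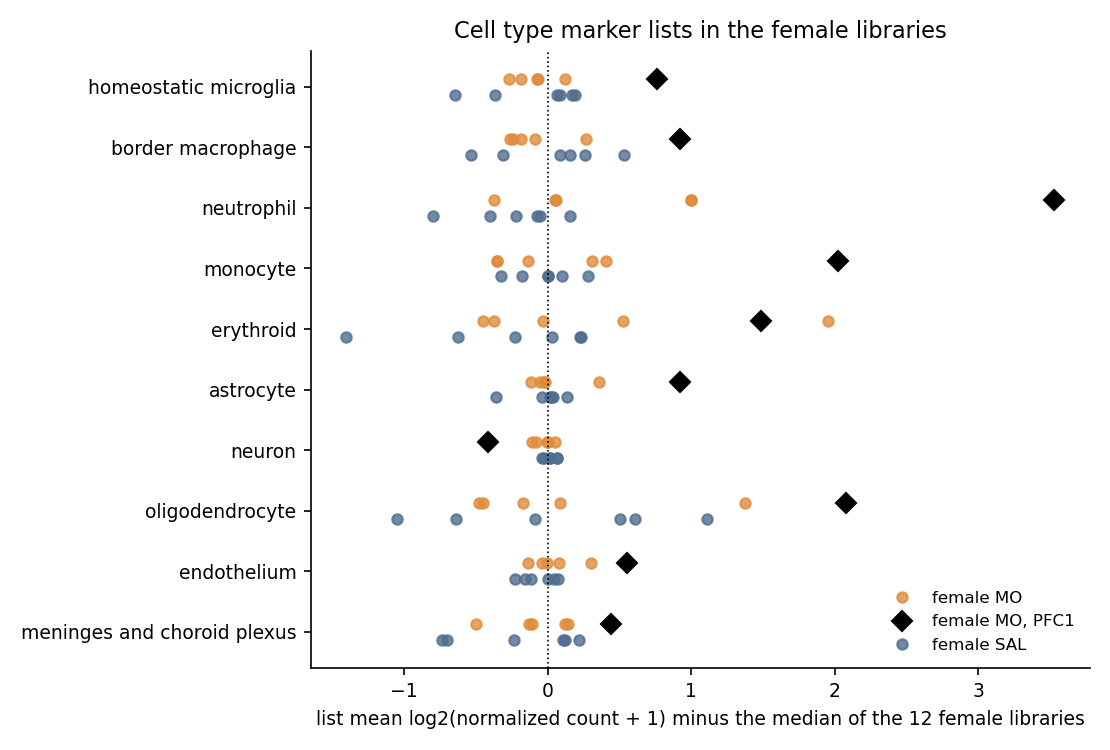
Mean log2 level of each cell type marker list (y axis) in the 12 female libraries, as the difference from their median (x axis). Each point is 1 library, MO above SAL, and the diamond is PFC1. PFC1 is highest for 8 of the 10 lists, second for erythroid genes and lowest for neurons.

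Where blood cells could add complement receptor RNA, their markers were examined beside the members. Neutrophils and monocytes carry CD11b, CD18 and C5aR1. Summed over the detected neutrophil markers, the values were 24.1 to 61.2 normalized counts in male MO against 15.9 to 51.2 in male SAL (7 of 13 genes tested), and 19.7 to 463 in female MO against 11.03 to 29.9 in female SAL (10 of 13 genes). The 463 was PFC1, where S100a8 reached 95.1 and S100a9 110.4. Border macrophage markers (10 of 10 genes) had sums of 132 to 305 in the male MO group against 185 to 319 in the male SAL group, and of 212 to 425 in female MO libraries against 166 to 306 in female SAL libraries. Monocyte markers had sums of 239 to 383 in male MO libraries against 237 to 290 in the male SAL group (3 of 6 genes), and of 257 to 399 in female MO libraries against 234 to 301 in the female SAL group (6 of 6 genes). These sums rest on few abundant genes, since the median list mean on the log2 scale was 3.87 in male SAL and 2.37 in female SAL. Ccr2, a monocyte marker, had group medians from 3.48 (male MO) to 6.40 (female SAL) normalized counts. The monocyte list mean of PFC1 lay 2.03 above the median of the 11 other female libraries. The part of these cells in the values of Itgam, Itgb2 and C5ar1 was not tested.

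The other genes of the cascade gave scattered results at low levels. Of the genes that start the classical and lectin pathways, 0 of 10 tested in males and 1 of 9 in females had an unadjusted p under 0.05, against 2.85% and 2.93% of all genes, shares that also stand behind the counts of the other lists. That was Fcna, which encodes ficolin A, a lectin pathway recognition protein, with 2.67 ± 1.26 normalized counts in female MO and 1.19 ± 1.22 in female SAL (SD, n = 6 each) and a log2 fold change of 0.89 (limma, unadjusted p = 0.0424, adjusted p = 0.918), or 0.93 without PFC1. In females Fcna passed the filter on low values mostly through the MO libraries, so its p values are a description only. Masp1 (227 and 224 normalized counts over the male and female libraries), C1ra (21.1 and 21.7) and C2 (11.3 and 11.02) had the highest values of this list, and none of the 3 had an unadjusted p under 0.05. Of the alternative and terminal pathway, 0 of 4 genes in males and 2 of 5 in females did. Hc, the gene of C5, had 2.50 ± 1.07 normalized counts in female MO and 0.674 ± 0.831 in female SAL, with 3 SAL libraries at 0 (log2 fold change 1.15, unadjusted p = 0.00925, adjusted p = 0.918, limma). Without PFC1 the log2 fold change of Hc was 1.297, and over both sexes it was 0.82 (limma, unadjusted p = 0.00621, adjusted p = 0.847). In males Hc fell below the filter on low values, with means of 1.05 normalized counts in MO and 0.461 in SAL, and was not tested. In females Hc passed that filter mostly through the MO libraries, so its p values are a description only. C7, part of the membrane attack complex, had 3.74 ± 1.82 normalized counts in female MO and 7.83 ± 3.69 in female SAL (log2 fold change -0.84, unadjusted p = 0.0382 and adjusted p = 0.918 in limma, exact permutation p = 0.0606), and the study had picked C7 from these same libraries. Without PFC1 its unadjusted p was 0.0763. In males C7 had 8.59 ± 2.19 in MO and 7.98 ± 2.13 in SAL, a log2 fold change of 0.097, and the female log2 fold change of C7 differed from the male one by -0.94 (limma, adjusted p = 0.9997, with 0.0391 before adjustment). C8g (9.91 and 10.4) and Cfp (8.46 and 7.75) had the highest values of this list beside C7.

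Among 7 other complement receptors tested in each sex, 1 in males and 0 in females had an unadjusted p under 0.05. C5ar2, the second receptor of C5a, had 2.60 ± 1.24 normalized counts in male MO and 5.55 ± 1.963 in male SAL (SD, n = 6 each), a log2 fold change of -0.88 (limma, unadjusted p = 0.0110, adjusted p = 0.9997, exact permutation p = 0.0108), while C5ar1 of the same mice had a positive value, above. In females C5ar2 had 4.56 ± 3.27 in MO and 4.82 ± 3.27 in SAL, a log2 fold change of -0.061 (-0.295 without PFC1), and the female log2 fold change of C5ar2 exceeded the male one by 0.82 (limma, adjusted p = 0.9997, with 0.120 before adjustment). Calr, Lrp1 and C1qbp, which encode proteins that bind C1q or clear its targets, had the highest values of this list (9183, 2967 and 1020.2 normalized counts in males) and log2 fold changes of -0.013, -0.03 and 0.08 in males and of -0.070, -0.03 and 0.026 in females, or -0.037, 0.10 and 0.031 without PFC1, where the sign of Lrp1 turned. Of 18 complement regulators tested in each sex, 1 in males had an unadjusted p under 0.05, Cd46, with 3.01 ± 1.71 normalized counts in MO and 1.21 ± 0.805 in SAL (log2 fold change 0.85, unadjusted p = 0.0414, adjusted p = 0.9997, limma), and 0 did in females. In males Cd46 passed the filter on low values mostly through the MO libraries, so its p values are a description only. Over both sexes Cd59b, which encodes an inhibitor of the membrane attack complex and is named here after its values were seen, had a log2 fold change of 0.80 (limma, unadjusted p = 0.0146, adjusted p = 0.847). Clusterin (Clu), an inhibitor of the terminal complex, averaged 12431 and 13562 normalized counts over the male and female libraries, with log2 fold changes of 0.0024 in males and 0.13 in females, or 0.011 in females without PFC1. Sez6l2 and Sez6, neuronal genes of a family with complement control domains, had -0.046 and -0.060 in males and -0.22 and -0.19 in females, or -0.10 and -0.042 in females without PFC1, the library with the lowest neuron markers. Of 13 other signals between neurons and microglia, 0 had an unadjusted p under 0.05 in either sex, and their highest values were those of Cx3cl1, the ligand of CX3CR1 (15199 and 14041), Sirpa, the receptor of CD47 (8448 and 7790), and Cd200 (2233 and 2045). Over both sexes the log2 fold change of Cx3cl1 was -0.13 (limma, unadjusted p = 0.0355, adjusted p = 0.847), where 4.72% of all genes had an unadjusted p under 0.05. It was -0.061 in males and -0.21 in females, or -0.11 in females without PFC1. The median log2 fold changes of the 5 lists in this order were 0.14, -0.26, -0.096, -0.034 and -0.018 in males and 0.051, 0.049, -0.061, -0.0019 and -0.0093 in females, or 0.034, -0.17, -0.037, 0.0038 and 0.026 in females without PFC1.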

How the data were processed

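Polyadenylated mPFC RNA of 24 offspring was sequenced as single 85-base reads. Per the labels and methods, the authors used STAR for alignment (mm10), Salmon for quantification and DESeq2 for their group comparisons. The deposited values are a signal, normalized counts of 24972 genes in 2 tables (males, females), each normalized by itself. Raw counts could not be recovered, so tests for counts were not run and the fit was made with limma 3.58.1 (R 4.3.3) with an empirical Bayes trend.

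Values were taken as log2(value + 1), which understates the change of low genes. A gene was kept where its values in a comparison summed to 10 or more, and Benjamini-Hochberg adjustment ran over all of them. Fits of MO against SAL were made for each sex, over both sexes with sex as a term, and as the difference between sexes. Male and female libraries may be littermates, which is not given, and were treated as independent. Single genes were tested by 2-sided exact permutation tests over 924 relabellings (462 for 5 against 6), and correlations with 100000 permutations (Python 3.11.15, SciPy 1.17.1, matplotlib 3.10.9). The fit was tested on simulated data.

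The members and lists were chosen with earlier results of these data known. Named genes were all 9 members, of each complement list up to 4 with the smallest unadjusted p under 0.05 in males or females, C7, Hc and the 3 with the highest values, and the 10 genes most like C1q among those with a mean of at least 20 in both tables, of which 1 is not reported here. Transcript lengths are from GENCODE M21 and promoters from RefSeq. Alternatives were pseudocounts of 0.5 and 5, no filter, a mean of at least 10, 3 rescalings, array weights, a term for the word combined and leaving out each library.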

Additional observations from a re-analysis of the deposited data

Results flagged for a closer look

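Among the 36 sets of 6 libraries (9 genes in 4 groups), 4 had a highest or lowest library farther from the others than Dixon's 95% criterion allows, and chance flags about 1 set in 20. C1qa (995 normalized counts) and C1qc (742) of the female MO library PFC1 lay above the next MO library at 597 and 479, and the values of this library's glial and blood markers stand beside them in the text. Itgam in the male SAL library PFC18 was 182 normalized counts against 267 or more in the other 5. C3ar1 in the female MO library PFC21 was 4.41 normalized counts against 13.4 or more in the other 5.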

How the results depend on the processing

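The number of genes past an adjusted p of 0.05 stayed at 0 in each comparison under every alternative run, and the smallest adjusted p was 0.143, in females. Tests on raw counts were not run, since the values are normalized, and no replicate block was possible because no replicate number is shared between groups. Scaling to Gapdh and Ppia moved the median of all genes by more than 0.1 on the log2 scale only for the difference between sexes, to 0.11. Fold changes of the members changed sign in 36 of 538 fits with 1 setting changed, and 6 of the 538 had an unadjusted p under 0.05, all of C5ar1, where the male log2 fold change ranged from 0.34 to 0.93 over 20 alternatives. The cause of the changes of sign was not tested. In males C1qb turned to -0.0094 with scaling to Gapdh and Ppia and to -0.0048 with array weights, and C3 to -0.019 with a term for the word combined. In females array weights turned C3 to -0.047, C4b to -0.11, Itgb2 to -0.031 and C5ar1 to -0.14. Within the female libraries marked combined, an alternative chosen after seeing the data, C1qa was -0.042 and C1qc -0.0036. Relative to 3 microglia markers in place of 21, C1qa in females was -0.0049 and C5ar1 -0.016.

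With 1 library left out, male log2 fold changes ran from -0.022 to 0.11 for C1qa, -0.048 to 0.061 for C1qb, -0.0085 to 0.13 for C1qc, -0.17 to 0.21 for C3, -0.19 to 0.058 for C4b, -0.19 to 0.0049 for Itgam, -0.26 to 0.016 for Itgb2 and -0.096 to 0.14 for C3ar1. Female ones ran from -0.0030 to 0.21 for C1qa, -0.016 to 0.18 for C1qc, -0.16 to 0.22 for C3, -0.076 to 0.27 for C4b, -0.021 to 0.23 for Itgam, -0.12 to 0.42 for C3ar1 and -0.13 to 0.42 for C5ar1. Relative to microglia markers they ran from -0.050 to 0.052 for C1qa, -0.0044 to 0.071 for C1qb, -0.077 to 0.0048 for C1qc, -0.23 to 0.24 for C5ar1 and -0.040 to 0.039 for Itgam in females, and from -0.017 to 0.058 for C1qb in males. C1qc relative to the markers in males had an exact permutation p of 0.0238 without the SAL library PFC9 (difference 0.13). Depth limits C3, C5ar1, Hc, Fcna, Cd46 and C5ar2, whose values are near those of single reads.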
